A study of Mus musculus with 2 samples.

Results

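Oxidative phosphorylation genes encode the machinery with which mitochondria turn electrons from nutrients into ATP. Here they are the genes whose symbol starts with Nduf, Uqcr, Atp5, mt-Nd, mt-Co, mt-Atp or mt-Cyt, or with Cox4 to Cox8, and the genes Sdha, Sdhb, Sdhc and Sdhd. This rule took 106 of the 20794 genes of the deposited matrix, of which 93 are nuclear genes and 13 are genes of mitochondrial DNA. The nuclear genes comprise 76 subunit genes, 8 complex I assembly factors named Ndufaf, 7 pseudogenes, Atp5s and Cox7a2l. The rule uses gene symbols alone and no measured value, but it was chosen with earlier results of these data known.

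The cells were GD2TIF cells, mouse T cells with a Cas9 transgene that had been activated and infected with a retrovirus. The virus was directed against Bcor and Zc3h12a and also delivered the GD2 chimeric antigen receptor 14g2a. Immunocompetent C57BL/6 mice each received 1000000 of these cells. After 2 months 1000000 splenic CD8+Thy1.1+ cells were sorted and loaded on a Singleron microwell chip, whose barcoded beads capture messenger RNA. An RNA library and a library of T cell receptors (TCR) were made, 1 of each, with no unedited control and no second time point. The labels used here do not give the number of mice, their age or sex, or the promoter of Cas9. Every comparison below is therefore between genes, or between cells of the same library, and no test was run. Intervals are exact and at 95% confidence. They describe counting error and leave out how much cells, mice or libraries vary.

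The RNA library held 10338 cells after filtering, with 500 to 17222 unique molecular identifiers (UMIs) per cell and a median of 1922. A UMI marks 1 captured RNA molecule. Levels are UMIs per 1000000 UMIs (CPM) over the summed cells and were not divided by transcript length. How well each transcript is captured was not tested. All 9 listed CD8 T cell genes stood at 100 CPM or more, while Cd4 had 14 UMIs, Foxp3 4, Ncr1 4 and Lyz2 4. Other genes of the same CD4, NK cell and macrophage lists had more, with 199 UMIs for Cd40lg, 45 for Klre1, 261 for Cd68 and 160 for Itgam. The erythroid gene Hbb-bs had 1243 UMIs and the dendritic cell gene Xcr1 398. Of all haemoglobin UMIs, 91.1% were in 1 barcode. No gene of these lists reached 100 CPM. Of the 5 listed B cell genes only Ighm reached 100 CPM, at 561 CPM, and Cd79a stood at 4.04 CPM. The part of such transcripts in the results was not tested.

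In the inner mitochondrial membrane, complexes I and II take electrons from NADH and succinate, complex III passes them to cytochrome c, and complex IV passes them to oxygen. Complexes I, III and IV pump protons, and complex V, the ATP synthase, uses the proton gradient to make ATP. Complexes I, III, IV and V are built from subunits of both genomes, whereas complex II is encoded in the nucleus alone. Mitochondrial genes are transcribed inside the organelle as long precursors that are then cut. In T cells the pathway is known for its use in memory cells and in proliferation.

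The transcription factors NRF1, GABP (a factor of the ETS family) and YY1 are known regulators of nuclear respiratory genes. Their core motifs were therefore looked for in the 300-base RefSeq promoter windows of build GRCm38.p6, which run from 250 bases before a listed transcript start to 50 after it. Of the 76 nuclear subunit genes, 65 matched a window. The 5 stretches of 100 bases below show such motifs in place. Each is from the subunit gene of highest level in its complex among those with a motif in the bases before the first listed start, leaving out genes of 1 chromosome that are not shown here. Capitals mark the motif. The stretches are Ndufa6 at chr15:82354321-82354420, minus strand, Sdhb at chr4:140961171-140961270, plus strand, Uqcrh at chr4:116075071-116075170, minus strand, Cox6b1 at chr7:30626115-30626214, minus strand, and Atp5e at chr2:174464150-174464249, minus strand, each written 5′ to 3′ along its gene.
Ndufa6: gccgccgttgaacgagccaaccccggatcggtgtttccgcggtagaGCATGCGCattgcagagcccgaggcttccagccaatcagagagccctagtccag
Sdhb: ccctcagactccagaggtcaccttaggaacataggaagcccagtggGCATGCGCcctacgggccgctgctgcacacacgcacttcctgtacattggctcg
Uqcrh: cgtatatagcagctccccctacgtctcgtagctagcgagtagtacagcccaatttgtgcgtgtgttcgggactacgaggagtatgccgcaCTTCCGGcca
Cox6b1: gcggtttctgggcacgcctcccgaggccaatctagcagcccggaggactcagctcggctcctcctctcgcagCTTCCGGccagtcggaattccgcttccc
Atp5e: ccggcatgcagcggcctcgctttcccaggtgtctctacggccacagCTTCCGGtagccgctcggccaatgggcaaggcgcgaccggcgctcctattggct

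The Ndufa6 and Sdhb stretches carry the NRF1 core, GCGCATGC on the opposite strand, which begins 83 and 54 bases before the start. The Uqcrh, Cox6b1 and Atp5e stretches carry the ETS core, CCGGAAG on the opposite strand, which begins 10, 28 and 102 bases before the start. A gene was counted where any of its windows held the motif, and the median was 1 listed start per gene in both sets. Over both strands the NRF1 core was present in 10 of the 65 subunit genes (15.4%), against 3.94% of 17492 protein-coding genes. The ETS core was present in 16 (24.6%), against 12.9% of all. The YY1 core, AAGATGGC, was present in 10 (15.4%), against 3.57% of all. At least 1 of the 3 motifs was present in 30 subunit genes (46.2%), against 18.7% of all. The 10 subunit genes with the YY1 core belonged to complex I, with 7, and complex V, with 3. No motif contains another, and a match is a run of letters, not a measured binding site. Of the factors themselves, Yy1 was measured at 160 CPM, Gabpa at 46.0 CPM and Nrf1 at 37.7 CPM. Ppargc1a, a coactivator known to raise mitochondrial content in muscle and brown fat, had 7 UMIs in the whole library.

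Nuclear members took 2.007% of all UMIs (2.001 to 2.013) and mitochondrial members 2.64% (2.633 to 2.646), which is 1.315 mitochondrial UMIs per nuclear UMI (1.31 to 1.321). As counted, 7 of the 13 mitochondrial genes stood at 855 CPM or more and the other 6 at 48.4 CPM or less. For 5 of these, reads may not have been counted in full, so the mitochondrial share and the ratio hold for the genes as counted. Of the nuclear part, 60 of the 76 subunit genes, or 78.9%, stood at 100 CPM or more, against 7.98% of the 20773 genes with any UMI.

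**Figure D1:**
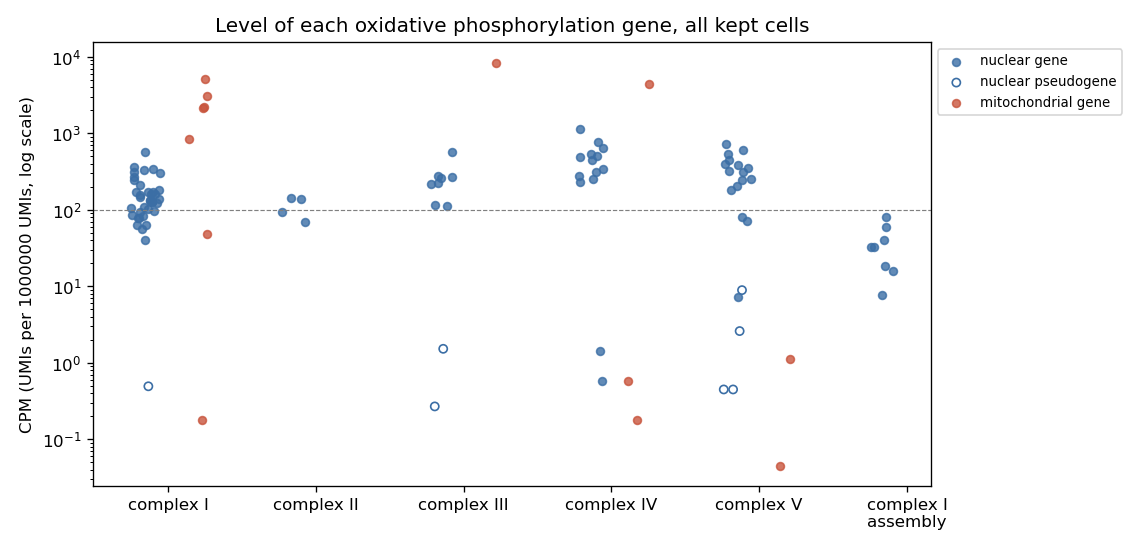
Level of each of the 106 genes in CPM on a log axis, by complex, with nuclear genes in blue, nuclear pseudogenes as open circles and mitochondrial genes in red. Points are single genes over all 10338 cells and the dashed line marks 100 CPM. Of the nuclear subunit genes 60 lie at or above the line, while 7 mitochondrial genes lie at 855 CPM or more, mt-Nd6 at 48.4 CPM and 5 near 0.

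Complex I, the NADH dehydrogenase, is the largest of the complexes and had the lowest levels per nuclear subunit gene apart from complex II. Its nuclear members held 0.613% of UMIs, with a median of 138 CPM over 36 subunit genes. Ndufa3 was highest at 572 CPM, followed by Ndufa13 at 367 CPM and Ndufa6 at 346 CPM, all of them accessory subunits. The 7 nuclear core subunits, which carry the flavin and the iron-sulfur clusters, ranged from 40.9 CPM for Ndufs1 to 161 CPM for Ndufs7, with a median of 96.3 CPM. The 29 accessory subunits ranged from 56.6 to 572 CPM, with a median of 154 CPM. Core and accessory genes thus overlapped in level. The 8 Ndufaf assembly factors, which help to build complex I and do not stay in it, lay lower, from 7.68 CPM for Ndufaf6 to 79.8 CPM for Ndufaf8.

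Complex II, the succinate dehydrogenase shared with the citric acid cycle, had the smallest sum, 0.0442% of UMIs. Sdha, the flavoprotein, stood at 143 CPM and Sdhb, the iron-sulfur subunit, at 138 CPM. The membrane anchors Sdhd and Sdhc stood at 93.1 and 68.5 CPM. The 4 genes thus lay within 2.09-fold of each other, the narrowest range of any complex. In complex III, 8 nuclear subunit genes held 0.205% of UMIs with a median of 241 CPM. Uqcrh, the hinge protein near cytochrome c, led at 568 CPM, while the core protein Uqcrc2 and the Rieske iron-sulfur protein Uqcrfs1 were lowest at 113 and 114 CPM.

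Complex IV had the highest median of its nuclear subunits, 446 CPM, and summed to 0.598% of UMIs. Cox4i1, the common isoform of the regulatory subunit 4, was the highest nuclear gene of the pathway at 1160 CPM. Ndufa4, which carries a complex I name but is counted here in complex IV, followed at 771 CPM, and Cox8a at 652 CPM. Isoforms known from other tissues were nearly absent: the testis isoform Cox6b2 had 13 UMIs against 535 CPM for Cox6b1, and the heart and muscle isoform Cox7a1 had 32 UMIs against 276 CPM for Cox7a2. Cox7a2l, which joins complexes III and IV, stood at 347 CPM.

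Complex V summed to 0.517% of UMIs over its nuclear members, with a subunit median of 322 CPM. Atp5e, the small epsilon subunit of the rotor, was highest at 723 CPM, ahead of the stalk subunit Atp5h at 616 CPM and the catalytic subunit Atp5b at 542 CPM. The membrane ring of the synthase is made from 1 protein that 3 genes encode. Of their UMIs, Atp5g3 gave 48.0%, Atp5g1 38.7% and Atp5g2 13.3%. Atp5g2, at 71.0 CPM, was the lowest subunit gene of the complex. Atp5l stood at 81.3 CPM with its pseudogene Atp5l2-ps at 8.93 CPM, so the level of this gene is uncertain where reads could go to either. All 7 pseudogenes together had 328 UMIs.

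Among the mitochondrial genes, mt-Cytb, the only subunit of complex III made in mitochondria, was highest at 8446 CPM and gave 32.0% of the UMIs of this part. Next came the complex I subunits mt-Nd1 at 5145 CPM, mt-Nd4 at 3132 CPM, mt-Nd2 at 2226 CPM, mt-Nd5 at 2167 CPM and mt-Nd3 at 855 CPM, and the catalytic subunit of complex IV, mt-Co1, at 4375 CPM. These 7 genes spanned 9.88-fold although they come from the same long precursors. mt-Nd6, which is encoded on the other strand of the circle and overlaps mt-Nd5 by 14 bases, stood at 48.4 CPM. By complex the mitochondrial share was 1.36% for I, 0.845% for III and 0.438% for IV.

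The remaining 5 mitochondrial genes had 47 UMIs together: 25 for mt-Atp6, 13 for mt-Co2, 4 for mt-Co3, 4 for mt-Nd4l and 1 for mt-Atp8. They lie side by side on the mitochondrial chromosome between bases 7013 (the start of mt-Co2) and 10173 (the end of mt-Nd4l), with mt-Nd3, at 855 CPM, in their midst at bases 9459 to 9806. Several of these genes overlap, mt-Atp8 and mt-Atp6 by 43 bases, mt-Nd4l and mt-Nd4 by 7 and mt-Atp6 and mt-Co3 by 1. RefSeq also lists mt-Atp6 as a synonym of Gm10925, a gene model at chr1:24613971-24614651 that has the same 681-base length as mt-Atp6. Gm10925 and 5 other such gene models had 455 UMIs in all. The sources used here do not say how reads that match several genes were counted, and the part of such reads in these counts was not tested. The values are thus given as counted. The mitochondrial shares of complex V (26 UMIs), complex IV (which rests on mt-Co1) and complex I (which includes mt-Nd4l) are uncertain for that reason. So are the share of all complexes together and the ratio to nuclear UMIs.

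Other genes of the pathway were measured at levels like those of the subunits or below. Of 11 measured genes for cytochrome c and carriers, 7 stood at 100 CPM or more, led by the ADP/ATP carrier Slc25a5 at 968 CPM. Cycs, cytochrome c itself, stood at 138 CPM, and the uncoupling protein Ucp2 at 487 CPM. Of 16 citric acid cycle genes 4 reached 100 CPM, with Mdh2 at 311 CPM and Idh3b at 260 CPM highest. The 22 genes of mitochondrial DNA expression had a median of 17.7 CPM. Among them Ssbp1, which coats single-stranded mitochondrial DNA, stood at 150 CPM, the packaging and transcription factor Tfam at 83.5 CPM and the RNA polymerase Polrmt at 13.3 CPM. The 38 assembly factors outside the rule had a median of 20.6 CPM and the 39 mitochondrial ribosome genes one of 47.9 CPM.

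Across single cells the nuclear and the mitochondrial part did not move together. Cells were first thinned to 1000 UMIs each, which left 9456 cells and left out 882 shallower ones. A thinned cell held 19.8 ± 5.81 nuclear member UMIs (mean and SD over cells) and 26.4 ± 10.4 mitochondrial ones. The variance was 1.70 times the mean for the nuclear part and 4.08 times for the mitochondrial part, so the mitochondrial part varied more between cells than the nuclear part. Sampling alone would give about 1. Pearson's r between both parts was −0.131 over all thinned cells and −0.026 over the 8428 cells under 5% mt- UMIs. Both parts are counted within the same 1000 UMIs.

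The nuclear share was lower in cells with more mitochondrial RNA. Here cells were ordered by the share of UMIs in all mt- genes, which contains the mitochondrial members and mt- ribosomal RNA, so the mitochondrial share follows from the ordering and the nuclear share is the one described. It was 2.246% in the 412 cells under 2% mt- UMIs, 2.020% in cells of 3 to 4%, and 1.871% in cells of 5 to 7%. It was 1.438% in the 295 cells of 7 to 10%, and 0.945% in the 272 cells of 10 to 20%. All shares have the same total, so a larger mt- share leaves less room for other genes, and the part of this in the nuclear share was not tested. These 272 cells were shallow, with a median of 798.5 UMIs. Their mitochondrial ribosomal RNA, mt-Rnr1 and mt-Rnr2, was also higher relative to the coding genes, at 0.999 UMIs per mitochondrial member UMI against 0.334 in cells of 3 to 4%. Ordered by depth, the shallowest cells, of 500 to 1456 UMIs, had a nuclear share of 1.851% and a mitochondrial share of 2.852%. The deepest, of 2569 to 17222 UMIs, had 2.101% and 2.601%. The part of depth and of mitochondrial ribosomal RNA in these values was not tested.

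**Figure D2:**
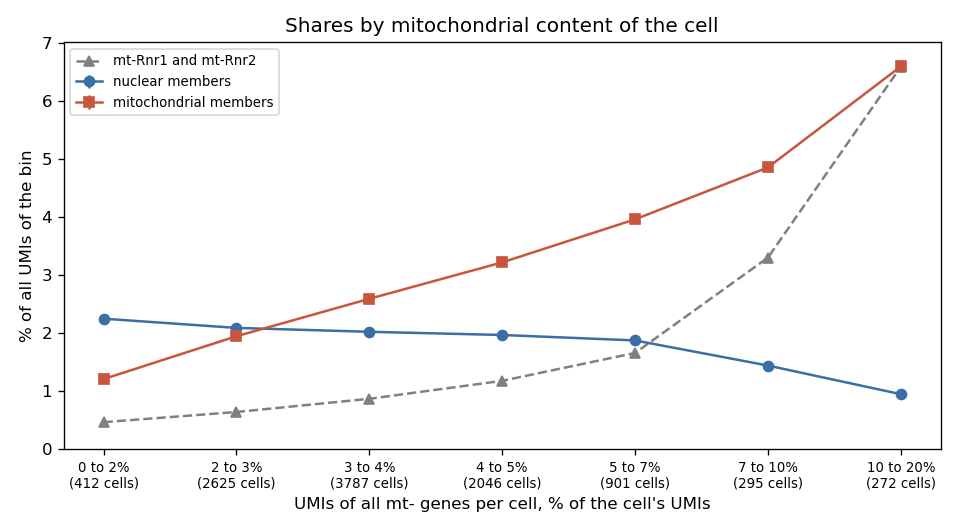
Nuclear members (circles), mitochondrial members (squares) and mt-Rnr1 with mt-Rnr2 (triangles) as a percent of the UMIs of each group of cells, against the share of mt- UMIs per cell. The intervals are smaller than most symbols. The nuclear share goes down from 2.246% to 0.945%, most of it beyond 7%, where ribosomal RNA goes up steeply.

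TCR sequences allowed cells of the same origin to be compared. Of the kept cells 3882 had exactly 1 productive TRB chain, and 12 families of 50 or more cells with the same TRB nucleotide sequence held 2614 of them. Families are named here by their V and J segments as deposited. Cells of a family descend, as a rule, from 1 T cell and are not replicates of a condition.

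The families spanned 1.249-fold in the nuclear share and 1.344-fold in the mitochondrial share. TRBV17 TRBJ1-1, of 200 cells, had the highest nuclear share, 2.295% (2.254 to 2.338), and the lowest mitochondrial share, 2.185% (2.144 to 2.226). TRBV13-3 TRBJ2-1, of 119 cells, had the lowest nuclear share, 1.838% (1.784 to 1.893), and the highest mitochondrial share, 2.937% (2.869 to 3.006). Mitochondrial UMIs per nuclear UMI were 0.952 in the first and 1.598 in the second, a 1.679-fold span. The other families lay between, with nuclear shares of 1.964% to 2.109%. The nuclear intervals of the first and second, which hold counting error alone, did not overlap with that of any other family of this size. In thinned cells the variance of nuclear UMIs was 1.7 times the mean, so intervals that held cell variation would be wider. The mitochondrial intervals did overlap with others. That of TRBV17 TRBJ2-7 was 2.145 to 2.274 at the low end, and that of TRBV12-2 TRBJ1-1 2.723 to 2.893 at the high end.

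Over the 12 families Pearson's r between nuclear and mitochondrial share was −0.715 and Spearman's rho −0.538. The families share 1 library and both shares have the same total. Median depth ranged from 1732 to 2622 UMIs, and its r with the nuclear share was 0.035. The share of cells with 5% mt- UMIs or more did move with the result. It was 3% in TRBV17 TRBJ1-1 and 21.9% in TRBV13-3 TRBJ2-1, and its r with the nuclear share was −0.691. In cells of 2 to 5% mt- UMIs, TRBV17 TRBJ1-1 had a nuclear share of 2.196% and TRBV13-3 TRBJ2-1 one of 1.891%. Their mitochondrial shares there were 2.270% and 2.671%. These families still had the highest and the lowest nuclear share in such cells, but no longer the extremes of the mitochondrial share. The lowest mitochondrial share was then 2.246% in TRBV17 TRBJ2-7 and the highest 2.708% in TRBV12-2 TRBJ1-1. The spread over families of 50 or more such cells was smaller, at 1.161-fold for the nuclear share and 1.206-fold for the mitochondrial share. These cells were chosen by their mt- share, which contains the mitochondrial members, so the choice itself narrowed their mitochondrial shares.

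**Figure D3:**
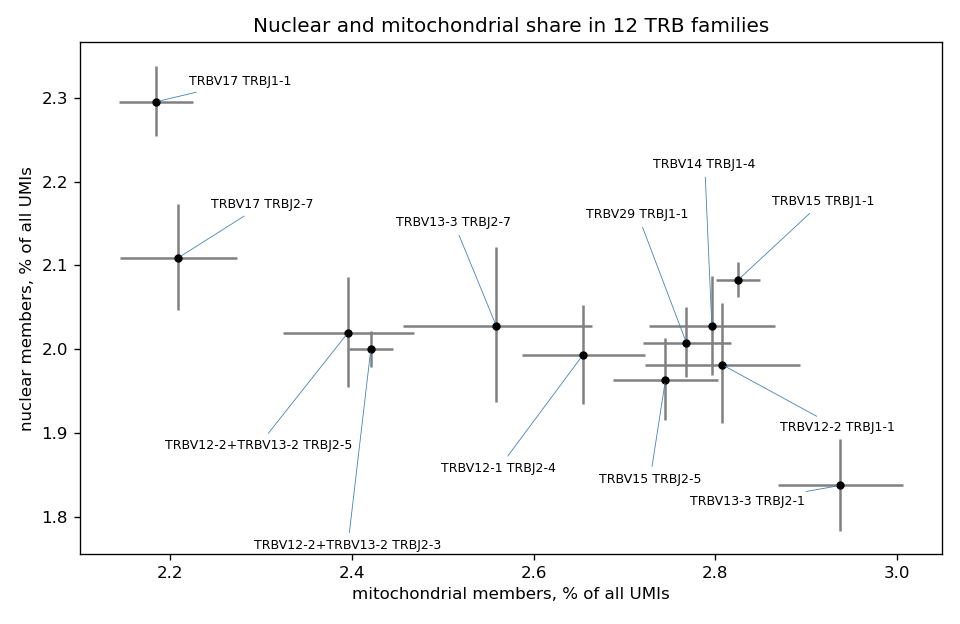
Nuclear against mitochondrial share of UMIs in the 12 TRB families, with exact 95% intervals as bars. TRBV17 TRBJ1-1 lies alone at the top left (2.295% and 2.185%) and TRBV13-3 TRBJ2-1 at the bottom right (1.838% and 2.937%).

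Per cell, these families overlapped with each other and with the rest. In cells thinned to 1000 UMIs, TRBV17 TRBJ1-1 had a median of 21 nuclear UMIs (quartiles 17 and 25) and 22 mitochondrial UMIs (17 and 26.25). TRBV13-3 TRBJ2-1 had 19 nuclear UMIs (15 and 21) and 28 mitochondrial UMIs (21 and 35). The nuclear median of 19 was shared by 3 other families, and the lowest was 18, in TRBV12-2 TRBJ1-1. The mitochondrial median of 22 was shared by TRBV17 TRBJ2-7 and that of 28 by TRBV14 TRBJ1-4. The quartile ranges of both families overlapped in either part.

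By complex, TRBV17 TRBJ1-1 was above all other single-TRB cells in the nuclear part of each. The fold was 1.122 for complex I (1.084 to 1.162), 1.173 for II (1.031 to 1.33), 1.116 for III (1.05 to 1.185), 1.181 for IV (1.141 to 1.222) and 1.14 for V (1.098 to 1.184). In complex III the nuclear share was 0.2276% both in this family and in TRBV12-2 TRBJ1-1. The Ndufaf assembly factors of TRBV17 TRBJ1-1 had a fold of 0.852 (0.705 to 1.021), so they did not share the direction of its complexes. On the mitochondrial side the folds of TRBV17 TRBJ1-1 were 0.843 for complex I, 0.798 for III and 0.869 for IV. Those of TRBV17 TRBJ2-7 were similar, at 0.842, 0.840 and 0.876. In TRBV13-3 TRBJ2-1 the nuclear fold was 0.801 for complex III (0.724 to 0.885), 0.832 for complex II (0.668 to 1.024, from 91 UMIs) and 0.835 for complex V (0.785 to 0.888). Complexes I and IV stood closer to 1, at 0.967-fold (0.918 to 1.019) and 0.933-fold (0.883 to 0.984).

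The single genes of these families followed their sums. A gene entered for a family where its level over all single-TRB cells, this family included, predicted at least 50 UMIs in it. In TRBV17 TRBJ1-1, 54 of the 61 nuclear members that entered had a fold above 1, with a median of 1.134. Of all 1664 genes that entered, 48.8% had a fold above 1, with a median of 0.993. None of the 7 mitochondrial members that entered was above 1 (median 0.812). In TRBV13-3 TRBJ2-1, 9 of 38 nuclear members had a fold above 1, with a median of 0.885, against 41.8% of 684 genes with a median of 0.956, and all 7 mitochondrial members were above 1 (median 1.144). These families were singled out by the summed shares, so the counts describe how evenly the sums were made up and are no further support.

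In TRBV17 TRBJ1-1 the gene of largest fold was Atp5f1, which encodes subunit b of the stalk of the ATP synthase. It stood at 282 CPM (238 to 333) against 180 CPM in other single-TRB cells, 1.57-fold (1.313 to 1.869), from 141 UMIs. It was the only member past 1.5-fold in this family, where 7.21% of all genes were past it in either direction. The complex I subunits Ndufa12 and Ndufc1 came next at 1.43-fold each, followed by the Rieske protein Uqcrfs1 at 1.35-fold and the complex I core subunit Ndufs7 at 1.34-fold. Sdhb and Cox6c stood at 1.28-fold each. Cox8a stood at 803 CPM, with a fold interval of 1.126 to 1.384. Sdha, Atp5a1 and Uqcrc1 lay within 0.05 of 1, so not every subunit was higher. Ndufb9 and Ndufa2 were lowest of the nuclear members, at 0.859-fold (0.659 to 1.103) and 0.873-fold (0.734 to 1.032), with intervals that included 1.

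In TRBV13-3 TRBJ2-1 the lowest folds belonged to 3 small subunits. The complex III subunits Uqcr10 and Uqcrq stood at 175 and 146 CPM, 0.639-fold (0.459 to 0.867) and 0.651-fold (0.452 to 0.909). Atp5e stood at 487 CPM (403 to 584) against 738 CPM, 0.66-fold (0.545 to 0.792). In this family 5.99% of all genes were past 1.5-fold. Ndufa7, at 1.20-fold (0.963 to 1.482), was the highest nuclear member.

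**Figure D4:**
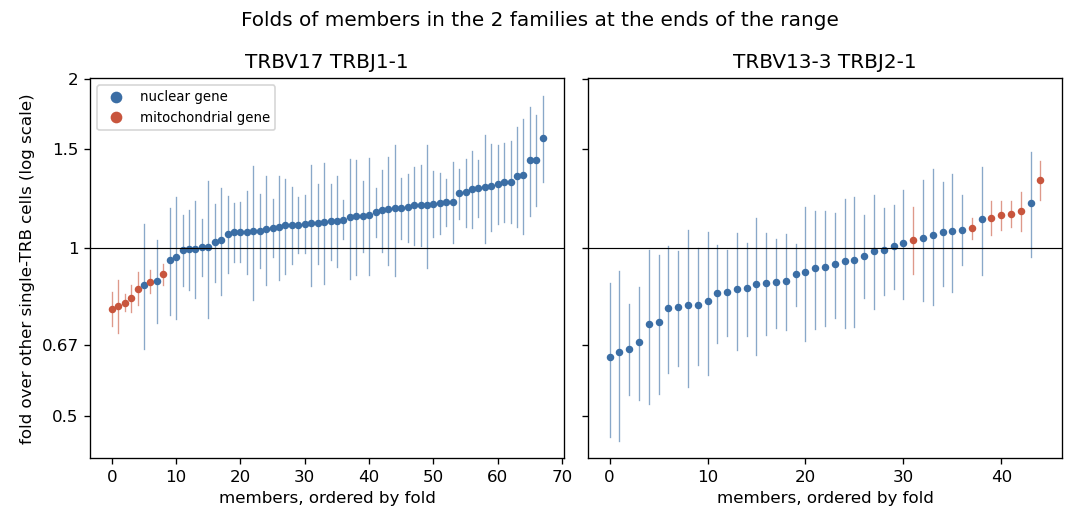
Fold of each member that entered, over other single-TRB cells, on a log axis, ordered by size, in TRBV17 TRBJ1-1 (left) and TRBV13-3 TRBJ2-1 (right), with exact 95% intervals. Blue points are nuclear and red points mitochondrial genes. Red points gather at the low end on the left (0.778 to 0.897) and at the high end on the right (1.033 to 1.319).

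Over all families large differences of single members were rare. Of 605 pairs of a member and a family that entered, 8 were past 1.5-fold, which is 1.32%, against 7.02% of the 18108 pairs of any gene. Of these, 2 were higher and 6 lower. The count was 6 without ribosomal protein genes, Gm42418 and Malat1 in any sum. It was 5 in cells of 1500 UMIs or more, and 3 where each cell was given its TRB of most UMIs. Besides the 4 already given, Uqcr11 of complex III stood at 140 CPM (93.4 to 200) against 295 CPM in TRBV17 TRBJ2-7, 0.472-fold (0.316 to 0.68), the largest fold of all, in a family with 4.51% of genes past 1.5-fold. In TRBV12-1 TRBJ2-4, where 9.87% of genes were past it, the complex IV subunit Cox5b stood at 0.661-fold (0.484 to 0.881) and Ndufb7 of complex I at 0.652-fold (0.478 to 0.869), each with 47 UMIs. In TRBV12-2 TRBJ1-1, where 9.73% were past it, Atp5a1, the alpha subunit of the synthase, stood at 606 CPM against 396 CPM, 1.53-fold (1.227 to 1.882). These folds rest on 29 to 141 UMIs each. Against the mean of the other families, each weighted equally, Atp5a1 stood at 1.47-fold and Uqcr11 at 0.50-fold. Of the 88 members that entered for some family, 14 entered for all 12, and 18 members entered for none.

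Among these 14 genes Atp5e varied most, from 487 CPM in TRBV13-3 TRBJ2-1 to 904 CPM in TRBV13-3 TRBJ2-7, which is 1.855-fold. Next came mt-Nd3 at 1.641-fold, mt-Nd5 at 1.533-fold, and mt-Cytb and Cox8a at 1.472-fold each. The median over the 14 was 1.428-fold, against 1.532-fold over the 228 genes that entered for every family. Atp5h, at 1.348-fold, and mt-Co1, at 1.301-fold, were the steadiest.

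The largest family differed from all others in the balance between mitochondrial genes. In TRBV15 TRBJ1-1, with 882 cells, mt-Cytb stood at 9924 CPM, against 6741 to 9028 CPM in the other 11 families, while mt-Co1 stood at 3930 CPM, in the lower part of their range of 3706 to 4820 CPM. This gives 2.525 mt-Cytb UMIs per mt-Co1 UMI (2.459 to 2.593), from 19247 and 7622 UMIs. In the other 11 families the same ratio ran from 1.794 to 1.941, and in all single-TRB cells outside the family it was 1.832 (1.806 to 1.858). Every other family thus lay within a narrow band, and this one lay outside it.

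The ratio in this family was as large in cells of like mitochondrial content. In its 731 cells of 2 to 5% mt- UMIs it was 2.539 (2.465 to 2.616). Over all kept cells the ratio ran from 1.599 to 2.079 between groups of cells by mt- share. These groups include cells of this family, so their range is not separate from it. Within the family mt-Nd3 had a fold of 1.33 over other single-TRB cells, mt-Cytb 1.255, mt-Nd2 1.175 and mt-Nd4 1.16. mt-Nd1 stood at 1.031-fold, mt-Nd5 at 0.999-fold and mt-Co1 at 0.911-fold. The genes of 1 mitochondrial chromosome thus did not move as a block. This was not particular to the family: in TRBV14 TRBJ1-4 the folds ran from 0.827 for mt-Nd3 to 1.185 for mt-Nd5. In TRBV15 TRBJ1-1 mt-Nd3 UMIs per mt-Nd5 UMI were also the highest, 0.513. Here the other families filled the range from 0.291 to 0.457, so the gap was smaller. Its nuclear share, 2.083%, lay within the range of the others. The difference was noticed in these cells and rests on 1 family. Only counts per gene were used, so whether the mt-Cytb or mt-Co1 transcripts of this family differ in sequence, which could alter how their reads were counted, was not tested.

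**Figure D5:**
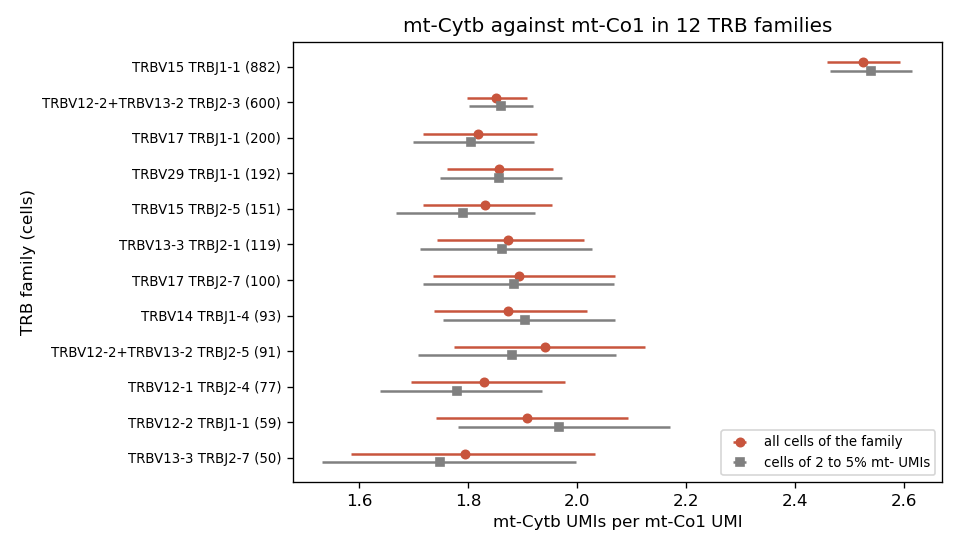
mt-Cytb UMIs per mt-Co1 UMI in each of the 12 TRB families, with exact 95% intervals, over all cells of a family (circles) and over its cells of 2 to 5% mt- UMIs (squares). TRBV15 TRBJ1-1 lies at 2.525 and 2.539, while the other families lie between 1.749 and 1.966.

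Other genes of the pathway were set beside the 2 families at the ends of the range. In TRBV17 TRBJ1-1 all 7 of the cytochrome c and carrier genes that entered had a fold above 1, and the list's sum had a fold of 1.196 (1.136 to 1.258). The sum was also higher in families with a nuclear share nearer the middle of the range. It was 1.18-fold (1.094 to 1.271) in TRBV12-1 TRBJ2-4 and 1.119-fold (1.018 to 1.227) in TRBV12-2 TRBJ1-1. In TRBV14 TRBJ1-4 it was 1.101-fold (1.018 to 1.189) and in TRBV29 TRBJ1-1 1.07-fold (1.012 to 1.131). In TRBV17 TRBJ1-1 Cycs stood highest among them, at 248 CPM against 132 CPM, 1.88-fold (1.551 to 2.269), followed by the ADP/ATP carrier Slc25a4 at 1.39-fold (1.173 to 1.641). The sum of the citric acid cycle list had a fold of 1.085 (1.008 to 1.166). The sums for the mitochondrial ribosome, 0.999 (0.942 to 1.06), and mitochondrial DNA expression, 1.021 (0.916 to 1.134), had intervals that included 1. So did the sum for the transcription factors, 0.988 (0.873 to 1.114). Within that last list Ppargc1b stood at 3.77-fold (1.831 to 7.137, from 12 UMIs) and Myc at 0.628-fold (0.418 to 0.909, from 29 UMIs). Neither entered by its expected UMIs, and the intervals of the other genes of that list included 1. In TRBV13-3 TRBJ2-1 the carriers' sum had a fold of 0.940 (0.867 to 1.018), the ribosome's 1.068 (0.984 to 1.158) and the citric acid cycle's 1.018 (0.914 to 1.131). The summed folds of the assembly factors outside the rule were 1.022 (0.952 to 1.097) in the first family and 0.871 (0.780 to 0.970) in the second.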

How the data were processed

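The deposited RNA matrix holds raw counts of UMIs per gene and barcode, not normalized by the authors, and the deposited contig table holds a count of UMIs per TCR contig. Tools named in the submitters' processing notes are STAR 2.6.1a, cutadapt 1.17 and featureCounts 2.0.1, with the build GRCm38 and no settings. Of 10387 barcodes, 49 were left out: 4 with under 200 genes and 47 with 20% or more mt- UMIs, some with both. The kept cells held 22280465 UMIs.

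No doublet caller was run, and the 244 kept cells with 2 or more productive TRB entered no family. Both libraries were joined by barcode. Counts were summed over cells. Sums have exact Poisson intervals and ratios exact conditional intervals. The ratio intervals were run on simulated Poisson counts, which hold no variation between cells, so this checks the calculation and not how well the intervals suit these cells. Each family was set against all other single-TRB cells. Every member could be named. By complex the highest, the lowest and the tissue isoforms were named, and over families the members past 1.5-fold and of widest range. The members and lists were chosen with earlier results of these data known. The alternatives changed the cell filter, depth, denominator, members, weighting, family definition and size, fold and expected UMIs. Work was done in python 3.11.15 with numpy 2.4.6, scipy 1.17.1 and pandas 2.3.3.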

Additional observations from a re-analysis of the deposited data

How the results depend on the processing

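With 1 library of each kind, no result has a replicate check. The nuclear share (2.007%) was 2.018% in cells under 10% mt- UMIs, 2.031% in cells of 1500 UMIs or more, 2.624% without ribosomal protein genes, Gm42418 and Malat1 in any sum, 1.941% for subunits only and 1.953% as a mean over cells. The mitochondrial share (2.64%) was 2.596% under 10% mt- UMIs, 2.659% with no filter, 2.606% at 1500 UMIs or more, 3.451% without those genes and 2.696% as a mean over cells. Mitochondrial UMIs per nuclear UMI (1.315) were 1.286 under 10% mt- UMIs, 1.327 with no filter, 1.283 at 1500 UMIs or more, 1.36 for subunits only and 1.381 as a mean over cells. The nuclear spread of families (1.249-fold) was 1.338-fold over the 19 families of 30 or more cells and 1.161-fold over 11 families in cells of 2 to 5% mt- UMIs, an alternative chosen after seeing the data. The mitochondrial spread (1.344-fold) was 1.39-fold and 1.206-fold there, the latter in cells chosen by a share that contains the mitochondrial members. The 8 pairs past 1.5-fold became 5 at 1500 UMIs or more and 3 with each cell given its TRB of most UMIs, and the cause was not tested. By construction they became 70 where the limit was a level 25% higher or its inverse, 1 at 2-fold and 34 or 1 when at least 20 or 100 UMIs were expected. The other 24 values stayed within their interval or, for counts and spreads, close to the main value. They include 6 pairs past 1.5-fold, in place of 8, without ribosomal protein genes, Gm42418 and Malat1. No paired analysis was possible because no second group was sequenced. Depth limits single members in small families, where few UMIs stand behind a fold.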
